A study of Mus musculus with 18 samples.

Results

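The circadian clock genes Arntl, Clock, Npas2, Per1, Per2, Per3, Cry1, Nr1d1, Nr1d2 and Dbp were followed through 18 mouse liver transcriptomes. They were found by symbol, and all 10 were present among the 38924 Ensembl gene IDs counted in males and among the 23337 gene symbols counted in females. The clock is a feedback loop of transcription that runs in almost every cell and is set in the liver by feeding as well as by light. The proteins of Arntl (BMAL1) and of Clock or Npas2 pair up and switch on the Per, Cry, Nr1d and Dbp genes through E-box elements. PER and CRY proteins then block that pair, and the REV-ERB receptors made from Nr1d1 and Nr1d2 repress Arntl. Liver Arntl and Npas2 therefore run broadly opposite in phase to Dbp, Nr1d1 and the Per genes over a day, so the level of each depends on the hour at which a liver is taken. That hour is not given in the sources used here.

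RNA of whole liver was sequenced from 1 library per mouse, 3 mice per group, all aged 8 weeks and kept on a high-fat diet (45% of kcal as fat) before collection. C57BL6J mice received low-dose penicillin (LDP) from birth (males 8, 10 and 11, females 39, 52 and 54) or no antibiotic (control males 5, 6 and 7, control females 29, 30 and 32). They were weaned at 4 weeks onto chow and changed to the high-fat diet at 6 weeks. Germ-free Swiss Webster females were colonised at 3 weeks with the microbiota of LDP mice (LDP recipients 2, 5 and 8) or of control mice (control recipients 1, 3 and 7) and were given no drug. Cage, litter and number of microbiota donors are not given in the sources used here. The p-values thus set group differences against the spread between these mice, which may share a cage, litter or donor. Male libraries held 70336366 to 74418889 counts and female libraries 17937005 to 28646168. All 6 hepatocyte markers examined (Alb, Apoa1, Ttr, Fah, Asgr1 and Tat) were detected in every group. Of 3 adipocyte markers, Lep was at 0 in every group, Plin1 in every group but control males and Adipoq only in LDP males. The highest sum of the 3 in any mouse was 0.187 CPM, in a control female. In whole liver, fewer cells of a type and less RNA per cell cannot be told apart.

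RefSeq promoter windows, 250 bases before to 50 after a start site on GRCm38.p6, were read for 9 of the 10 members (13 windows; Per2 was not matched). Each was searched on both strands for CACGTG (the E-box bound by BMAL1 and CLOCK), TTANGTAA (the D-box bound by DBP and its relatives) and TAGGTCA (the element shared by ROR and REV-ERB receptors). The 4 windows that hold any of these letters are shown because they cover all 3 arms of the loop. The motif letters are in capitals, and the sequence runs 5′ to 3′ on the strand of the gene.
Arntl, chr7:113207261-113207560, plus strand: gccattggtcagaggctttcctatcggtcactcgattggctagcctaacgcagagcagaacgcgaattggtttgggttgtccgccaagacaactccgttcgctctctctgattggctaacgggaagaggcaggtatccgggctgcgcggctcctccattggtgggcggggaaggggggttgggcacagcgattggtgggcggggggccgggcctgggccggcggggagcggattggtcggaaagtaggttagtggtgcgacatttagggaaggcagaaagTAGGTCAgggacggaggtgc
Per1, chr11:69098699-69098998, plus strand: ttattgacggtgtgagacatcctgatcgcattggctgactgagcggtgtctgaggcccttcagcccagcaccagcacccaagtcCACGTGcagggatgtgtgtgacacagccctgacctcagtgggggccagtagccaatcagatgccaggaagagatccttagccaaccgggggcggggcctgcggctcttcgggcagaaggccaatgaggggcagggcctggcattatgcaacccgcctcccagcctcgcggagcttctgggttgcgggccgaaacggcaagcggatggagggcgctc
Per3, chr4:151044616-151044915, minus strand: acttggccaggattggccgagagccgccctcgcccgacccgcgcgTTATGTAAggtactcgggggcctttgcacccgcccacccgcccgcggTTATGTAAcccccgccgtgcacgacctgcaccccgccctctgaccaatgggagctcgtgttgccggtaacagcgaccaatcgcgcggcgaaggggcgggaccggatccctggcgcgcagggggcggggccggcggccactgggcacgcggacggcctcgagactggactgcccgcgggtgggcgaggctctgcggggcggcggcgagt
Cry1, chr10:85185005-85185304, minus strand: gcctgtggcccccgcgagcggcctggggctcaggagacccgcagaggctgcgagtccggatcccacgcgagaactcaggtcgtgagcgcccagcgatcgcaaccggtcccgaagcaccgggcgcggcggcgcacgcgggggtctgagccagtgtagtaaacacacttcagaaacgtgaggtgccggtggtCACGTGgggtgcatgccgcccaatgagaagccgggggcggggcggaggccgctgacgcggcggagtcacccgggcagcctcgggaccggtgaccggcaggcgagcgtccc
The Arntl window holds TAGGTCA 31 bases after the start site. The Per3 window holds TTATGTAA at 205 and again at 158 bases before the start. CACGTG lies 166 bases before the start in the Per1 window and 60 bases before it in the Cry1 window. Among all 32851 RefSeq promoter windows of this length, 7.15% hold CACGTG, 2.32% TTANGTAA and 2.61% TAGGTCA. A match is a description of the letters in the window.

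The genes themselves are spread over the genome. On GRCm38 the activators are at chr7:113207465-113314126 (Arntl, plus strand), chr5:76209868-76304792 (Clock, minus strand) and chr1:39193731-39363236 (Npas2, plus strand). The repressors are at chr11:69095217-69109960 (Per1, plus strand), chr1:91415982-91459324 (Per2, minus strand), chr4:151003652-151044665 (Per3, minus strand) and chr10:85131700-85185064 (Cry1, minus strand). The REV-ERB genes are at chr11:98767932-98775333 (Nr1d1) and chr14:18204054-18239127 (Nr1d2), both on the minus strand, and Dbp is at chr7:45705088-45710203 on the plus strand. Strand was not stated for the counts, so reads of overlapping antisense genes cannot be told apart from theirs.

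Levels were expressed as CPM, that is, the counts of a gene per 1000000 counts of its library, with library sizes scaled by the trimmed mean of M values (TMM). To set genes beside each other, CPM was divided by the gene length deposited for the males. On this scale Nr1d1, the REV-ERB alpha receptor, had the highest mean level of the 10 in the 6 males (37.9 CPM per kb, range 23.3 to 49.1). Nr1d2, the REV-ERB beta receptor, followed with 29.5 CPM per kb (25.5 to 32.2), and Dbp, a transcription factor of clock output, with 26.2 (17.4 to 31.7). A gap separated these from the next members, since the highest Per1 level was 12.2 CPM per kb. Per1 averaged 9.83 CPM per kb, Clock 7.89, Per2 6.51 and Per3 4.55, with overlapping ranges between neighbours. Cry1 averaged 2.45 CPM per kb and Arntl 1.38 (0.865 to 2.57), again overlapping. Npas2, which can stand in for Clock, came last at 0.155 CPM per kb, and its highest value of 0.218 was below the lowest of Arntl. Npas2 counts were low in females, with 22, 12 and 1 counts in LDP females 39, 52 and 54 and 8, 10 and 4 counts in control females 29, 30 and 32, so its fold changes rest on few counts.

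**Figure D1:**
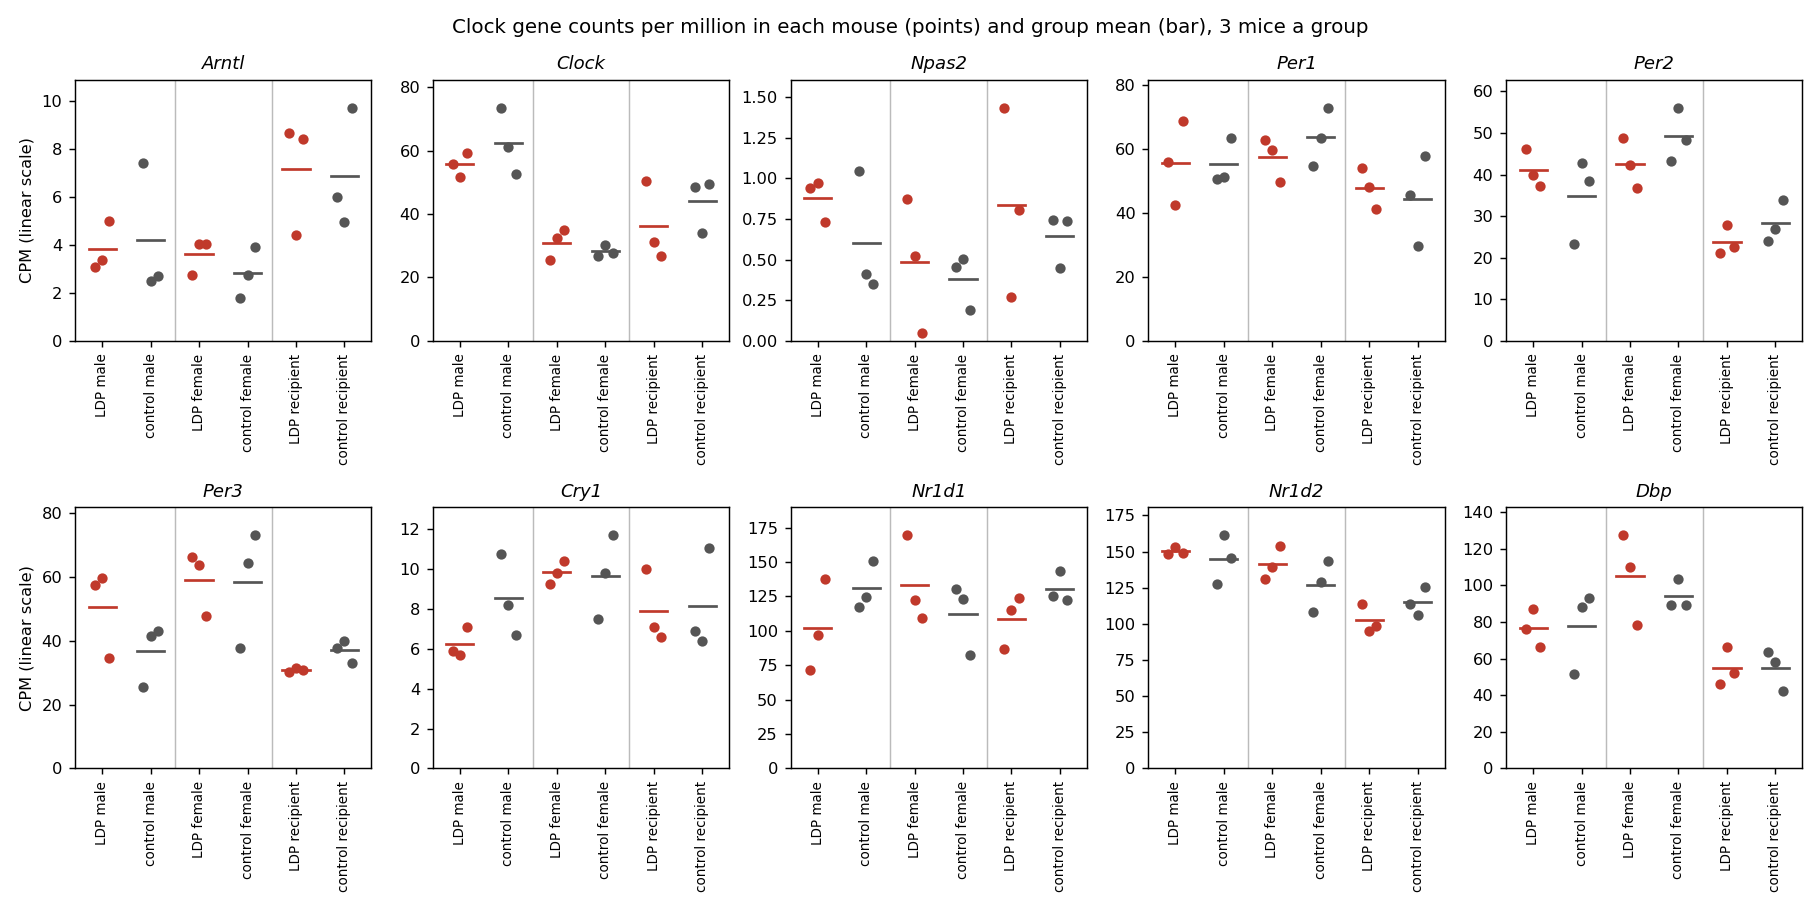
CPM (linear axis from 0) of each of the 10 clock genes, 1 point per mouse, with LDP mice left of control mice in each comparison and bars at group means. Within most groups the 3 mice spread as widely as the groups differ, and control male 5 lies apart from control males 6 and 7 for Arntl, Per2 and Dbp.

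In males, penicillin from birth was set against no antibiotic. No clock gene passed the test, and the mice of the groups overlapped for all 10. Differences are given as log2 fold changes, LDP over control, so that 1 is a doubling and 0 no difference. The test was edgeR's quasi-likelihood test with Benjamini-Hochberg adjustment over all genes and a threshold of 0.05. It called 0 of the 10 members, against 0.00648% of the 15438 genes tested, and DESeq2 also called 0 of the 10, against 0.259% of genes. At an unadjusted p under 0.05 it gave 1 member, Cry1, against 5.23% of genes. Groups that did not overlap were found for 0 members and for 10.5% of genes. Of the 10 members, 5 were higher and 5 lower in LDP males on average (50.7% of all genes were higher), with a median log2 fold change of -0.0014, beside 0.0024 over all genes.

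Among the activators, Arntl had 3.08, 3.39 and 5.0 CPM in LDP males 8, 10 and 11, against 7.45, 2.51 and 2.69 CPM in control males 5, 6 and 7. Control male 5 had the highest value of the 6 and the other 2 controls the lowest, so that the LDP males all lay inside the range of the controls. The log2 fold change was -0.14 (SE 0.479, adjusted p = 0.977 by edgeR). It was 0.55 without control male 5 (adjusted p = 1.0 by edgeR). Clock gave a log2 fold change of -0.17 and Npas2 one of 0.56, with 95% intervals from -0.44 to 0.10 and from -0.36 to 1.47. Npas2 was at 0.940, 0.972 and 0.733 CPM in LDP males 8, 10 and 11, against 1.04, 0.409 and 0.347 CPM in control males 5, 6 and 7. Here again control male 5 lay above every LDP male and the other 2 controls lay below them. Without it the log2 fold change of Npas2 was 1.22 (adjusted p = 1.0 by edgeR).

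Among the repressors, Cry1 had 5.91, 5.68 and 7.11 CPM in LDP males 8, 10 and 11, against 10.8, 8.18 and 6.72 CPM in control males 5, 6 and 7. Only LDP male 11 reached into the range of the controls. The log2 fold change of Cry1 was -0.46 (SE 0.175, 95% interval -0.86 to -0.06, adjusted p = 0.920 by edgeR), and it was -0.26 without control male 5. Per3 had 57.7, 59.6 and 34.7 CPM in LDP males, in the same order, against 25.5, 41.6 and 43.2 CPM in control males. LDP males 8 and 10 were above all controls and LDP male 11 was below control males 6 and 7. The log2 fold change of Per3 was 0.46 (SE 0.294, adjusted p = 0.920 by edgeR), and it became 0.67 on leaving out LDP male 11 and 0.26 on leaving out control male 5. Per2 was at 46.3, 40.0 and 37.2 CPM in LDP males, against 23.3, 42.7 and 38.5 CPM in control males, and only control male 5 lay outside the LDP range. Its log2 fold change was 0.24, and 0.02 without control male 5. Per1 differed by 0.01 on the log2 scale.

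The REV-ERB genes gave log2 fold changes of -0.36 for Nr1d1 (95% interval -0.97 to 0.25) and 0.05 for Nr1d2 (-0.15 to 0.25). Nr1d1 ran over 71.7, 97.0 and 138 CPM in LDP males, against 118, 125 and 151 CPM in control males, so the most variable group was the LDP one (SD 33.4 CPM, against 17.7 CPM in controls, n = 3 each). Nr1d2 stayed between 149 and 153 CPM in LDP males and between 127 and 161 CPM in control males. Dbp had 76.2, 87.2 and 66.5 CPM in LDP males 8, 10 and 11, against 51.3, 88.0 and 93.3 CPM in control males 5, 6 and 7. Control male 5 was lowest of all for Dbp, and the group means were 76.6 ± 10.3 CPM in LDP males and 77.5 ± 22.8 CPM in control males (SD, n = 3 each). Control male 5 was at one end of the 3 male controls for all 10 members, highest for Arntl, Clock, Npas2 and Cry1 and lowest for Per1, Per2, Per3, Nr1d1, Nr1d2 and Dbp. For Per1 it was nearly level with control male 6 (50.6 and 51.2 CPM). The share of all genes for which that mouse was at one end was not computed. In the same males the summed CPM of 6 hepatocyte markers was 85676 to 96802 in LDP males, against 72983 to 82473 in control males. By edgeR's log2 fold changes 2 of these 6 were higher and 4 lower in LDP males, with a median of -0.024. The higher sum was thus not shared by most of the 6. The summed CPM of 6 Kupffer cell markers was 298 to 345 in LDP males, against 365 to 440 in control males. Of these, 0 were higher and 6 lower, with a median of -0.26. The other 10 cell type lists overlapped, and the part of cell types in the clock values was not tested.

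In C57BL6J females, the same exposure was compared in the other sex. Again 0 of the 10 clock genes passed edgeR's test, against 0.0% of 12914 genes. DESeq2 called 0 of 10, against 0.108% of genes, and 0 members had an unadjusted p under 0.05 in edgeR, against 4.51% of genes. Groups that did not overlap were found for 0 members and for 9.12% of genes. On average 8 members were higher and 2 lower in LDP females (50.9% of all genes were higher), with a median log2 fold change of 0.14, beside 0.0031 over all genes. All adjusted p-values of members were 0.999 by edgeR.

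Arntl had 2.75, 4.06 and 4.03 CPM in LDP females 39, 52 and 54, against 1.81, 2.76 and 3.93 CPM in control females 29, 30 and 32. LDP females 52 and 54 were just above the highest control, and LDP female 39 was level with control female 30. The log2 fold change was 0.33 (95% interval -0.30 to 0.97). Clock was at 25.5 to 34.8 CPM in LDP females and 26.7 to 30.3 CPM in control females, a log2 fold change of 0.13. For Npas2 the log2 fold change was 0.40, with an interval from -1.28 to 2.09 that was the widest of the 10 in this sex. Of the repressors, Per2 was 42.6 ± 6.02 CPM in LDP females and 49.2 ± 6.46 CPM in control females (SD, n = 3 each), a log2 fold change of -0.21. Per1 was the other member that was lower on average, with a log2 fold change of -0.15. Per3 had 66.2, 63.7 and 47.7 CPM in LDP females, against 37.9, 64.5 and 73.1 CPM in control females, and both the highest and the lowest Per3 value were in controls. Its log2 fold change was 0.02, as was that of Cry1.

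Nr1d1 was at 169, 122 and 109 CPM in LDP females 39, 52 and 54, against 130, 123 and 82.3 CPM in control females 29, 30 and 32. Its log2 fold change was 0.26 (95% interval -0.24 to 0.75), the opposite sign to that in males. Nr1d2 and Dbp each gave a log2 fold change of 0.16. Dbp had 127, 110 and 78.1 CPM in LDP females, against 89.5, 104 and 89.5 CPM in control females, and LDP female 54 held the lowest value. Mesothelial markers summed to 8.09 to 19.9 CPM in LDP females, against 4.55 to 5.58 CPM in control females, without overlap, and their part in the clock values was not tested. The difference between the effects in females and in males was tested over the genes named in both tables. It was called by edgeR for 0 of the 10 members, against 0.0% of 12750 genes, and by DESeq2 for 0 of 10, against 0.00784% of genes. The largest difference was that of Nr1d1, 0.62 higher in females on the log2 scale (95% interval -0.16 to 1.4, adjusted p = 1.0 by edgeR), and 0 members had an unadjusted p under 0.05, against 2.73% of genes.

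**Figure D2:**
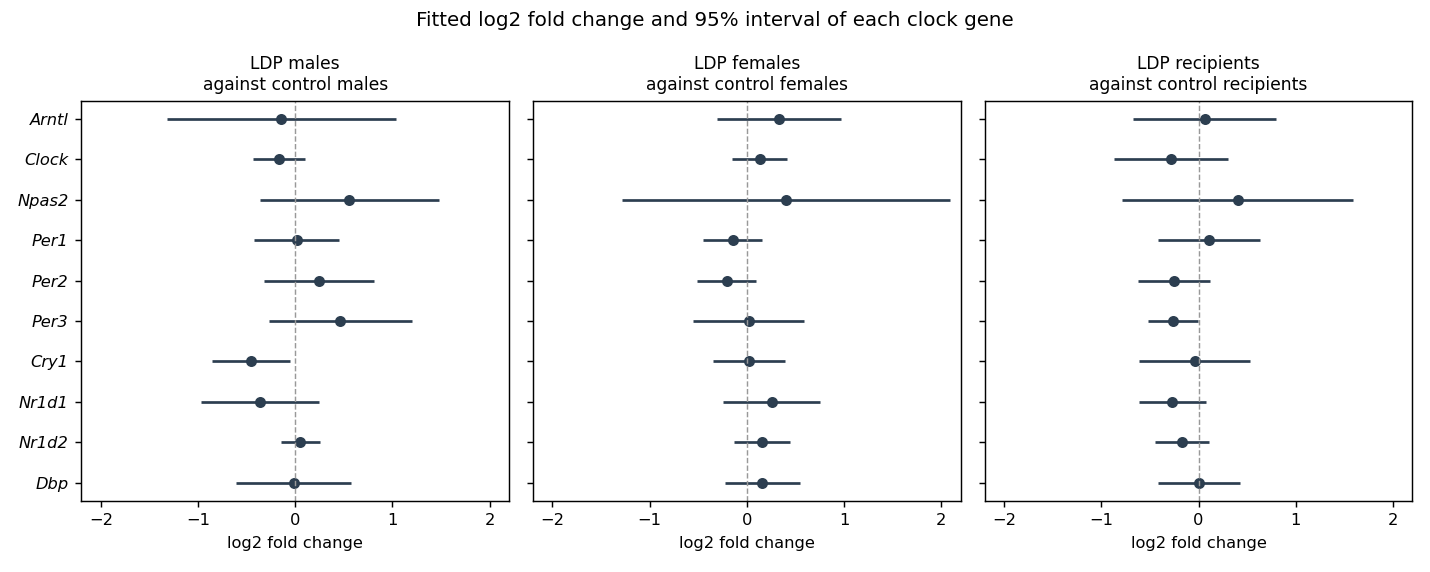
Log2 fold change with its 95% interval for each clock gene in the 3 comparisons of LDP over control. Intervals of 28 of the 30 values include 0; those of Cry1 in males and Per3 in recipients end just below it, and neither gene had an adjusted p under 0.05 by edgeR.

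In recipients, the question was whether the LDP-selected microbiota alone, without drug, went with another clock state. edgeR called 0 of the 10 members, against 0.00782% of 12780 genes. DESeq2 called 0 of the 3 members to which it gave an adjusted p, against 0.11% of the 12780 genes, with or without an adjusted p. At an unadjusted p under 0.05 edgeR gave 1 member, Per3, against 5.11% of genes. Per3 was also the 1 member whose groups did not overlap, beside 11.7% of genes. On average 4 members were higher and 6 lower in LDP recipients (48.4% of all genes were higher), with a median log2 fold change of -0.11, beside -0.0077 over all genes.

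Per3, a repressor of the PER family, had 30.2, 31.6 and 30.8 CPM in LDP recipients 2, 5 and 8, against 37.8, 40.0 and 33.2 CPM in control recipients 1, 3 and 7. The LDP recipients lay close together below all 3 controls. The log2 fold change was -0.26 (SE 0.114, 95% interval -0.52 to -0.0033, adjusted p = 0.846 by edgeR). Per2 had 21.1, 27.8 and 22.6 CPM in LDP recipients, against 24, 27 and 34 CPM in control recipients, a log2 fold change of -0.25 (95% interval -0.62 to 0.12). Per1 was 47.7 ± 6.42 CPM in LDP recipients and 44.3 ± 14.1 CPM in control recipients (SD, n = 3 each). Cry1 overlapped throughout, at 6.59 to 10 CPM in LDP recipients and 6.38 to 11.1 CPM in control recipients.

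Arntl had 8.70, 4.42 and 8.42 CPM in LDP recipients 2, 5 and 8, against 6.02, 4.95 and 9.74 CPM in control recipients 1, 3 and 7. Each group held a low and a high mouse, and the log2 fold change was 0.06 (95% interval -0.67 to 0.80). Clock was at 50.5, 31.0 and 26.7 CPM in LDP recipients, against 48.6, 34.0 and 49.4 CPM in control recipients, a log2 fold change of -0.29 (95% interval -0.87 to 0.30). Npas2 gave 0.40 on the same scale (-0.78 to 1.59). Nr1d1 was 108 ± 19.4 CPM in LDP recipients and 131 ± 11.5 CPM in control recipients (SD, n = 3 each), a log2 fold change of -0.27. Nr1d2 gave a log2 fold change of -0.17. Dbp averaged 54.9 ± 10.3 CPM in LDP recipients and 54.7 ± 11.3 CPM in control recipients (SD, n = 3 each). LDP recipient 5 had the highest Dbp and the lowest Arntl of the 6 mice. Bile duct markers summed to 25.5 to 28.7 CPM in LDP recipients, against 29.1 to 35.6 CPM in control recipients. The 3 exocrine pancreas markers (Pnlip, Cpa1 and Cela1) summed to 38.9 to 55.0 CPM, against 19.8 to 34.6 CPM in control recipients. Pnlip and Cpa1 were at 0 in LDP recipients, so the sum there was that of Cela1 alone. The part of bile duct and exocrine pancreas markers in the clock values was not tested. The difference between the LDP effects in recipients and in C57BL6J females was called by edgeR for 0 of 10 members, against 0.0% of 13295 genes, by DESeq2 for 0 of 10, against 0.0827%, and for 0 at an unadjusted p under 0.05, against 5.94% of genes.

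Other clock genes and clock outputs in liver were read in the same fits. Of 16 other clock genes, 15 were tested in males and in C57BL6J females and 14 in recipients, and edgeR called 0 in each. DESeq2 also called 0 in each, but gave only 5 of the 14 an adjusted p in recipients. At an unadjusted p under 0.05 edgeR gave 1 of 15 in males, 0 of 15 in C57BL6J females and 0 of 14 in recipients, beside 5.23%, 4.51% and 5.11% of all genes. In males 10 were higher and 5 lower in LDP mice, beside 50.7% of all genes higher. Csnk1d, a kinase of PER proteins, gave a log2 fold change of -0.13 there. In females 5 were higher and 10 lower, beside 50.9% of genes higher. Bhlhe41, a repressor of E-box genes, gave 0.71 there and Btrc, a ligase subunit that targets PER proteins, gave -0.16. In recipients 3 were higher and 11 lower, beside 48.4% of genes higher. Cry2, the sister gene of Cry1, gave -0.31 there.

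All 18 clock output genes were tested in each comparison, and edgeR called 0. At an unadjusted p under 0.05 edgeR gave 3 of 18 in males, 1 of 18 in C57BL6J females and 1 of 18 in recipients, beside the 5.23%, 4.51% and 5.11% of all genes. DESeq2 called 0 in males, 0 in C57BL6J females and 1, Alas1, among the 9 given an adjusted p in recipients. Beside these stand 0.259%, 0.108% and 0.11% of all genes, with or without an adjusted p. In males, Tfrc, the transferrin receptor, was at 15.8 to 18.7 CPM in LDP males, against 21.2 to 21.5 CPM in control males, a log2 fold change of -0.32, and Por, the electron donor of cytochromes P450, gave -0.19. In females the 2 of smallest p were Wee1, a cell cycle kinase, at -0.46, and Por at -0.33. In recipients they were Alas1, the first enzyme of heme synthesis, and Rgs16, a regulator of G protein signalling. Alas1 was at 581 to 1010 CPM in LDP recipients, against 427 to 450 CPM in control recipients, a log2 fold change of 0.96 without overlap, which DESeq2 called (adjusted p = 0.00164) and edgeR did not. Rgs16 gave 0.52.

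The spread of the members between mice of 1 group was set beside that of other genes. The standard deviation of log2 CPM within groups had a median over the 10 members of 0.35 in males, beside 0.15 over all genes tested. In C57BL6J females it was 0.25, beside 0.18, and in recipients 0.33, beside 0.21. Set against up to 500 genes on each side of it in mean CPM, a member lay above their median in 10 of 10 cases in males, 10 of 10 in C57BL6J females and 8 of 10 in recipients. The exceptions were Per3 (0.10, beside 0.16) and Nr1d2 (0.13, beside 0.16) in recipients. In males Arntl had a standard deviation of 0.67, beside 0.18 for genes of like level, and Dbp one of 0.36, beside 0.084. Control male 5 weighed on both: with it left out, and the groups centred again, they were 0.30 for Arntl, beside 0.18, and 0.16 for Dbp, beside 0.084. The median over the members in males was then 0.19, beside 0.15 over all genes, and 8 of 10 members lay above the genes of like level. Leaving out any other 1 mouse gave 9 or 10 of 10 in males, and leaving out any 1 mouse gave 8 to 10 of 10 in C57BL6J females and 7 to 9 of 10 in recipients. This was added after seeing the data.

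**Figure D3:**
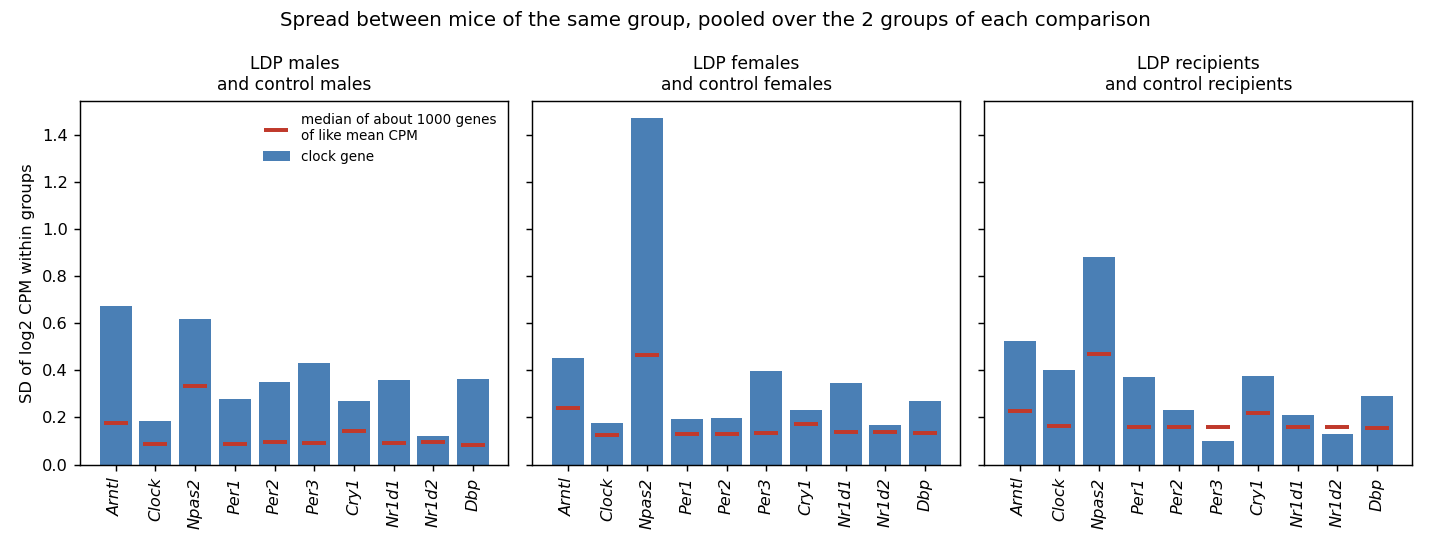
Standard deviation of log2 CPM between mice of the same group for each clock gene (columns from 0), with a line at the median of up to 500 genes on each side in mean CPM, in each of the 3 comparisons. The columns reach above the line for 10, 10 and 8 of the 10 members, and without control male 5 the first number is 8.

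A single index per mouse was formed as the mean log2 CPM of Arntl, Clock and Npas2 minus that of Per1, Per2, Per3, Nr1d1, Nr1d2 and Dbp, set to 0 at the control mean of each comparison. LDP males 8, 10 and 11 had values of 0.07, 0.08 and 0.22, against 1.08, -0.44 and -0.63 in control males 5, 6 and 7. The LDP males lay together between control male 5 and the other 2 controls. LDP females 39, 52 and 54 had 0.16, 0.37 and -0.35, against 0.06, 0.09 and -0.15 in control females 29, 30 and 32. The lowest of these, LDP female 54, is the mouse with 1 count of Npas2. With Npas2 left out of the index the LDP females had -0.28, 0.32 and 0.61, against -0.16, -0.05 and 0.21 in the control females, so that LDP female 54 became the highest of the 6. LDP recipients 2, 5 and 8 spread over 0.79, -0.70 and 0.16, against 0.08, -0.36 and 0.28 in control recipients 1, 3 and 7. In each comparison the groups overlapped on the index.

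The likeness of genes to Arntl and Dbp from mouse to mouse was then described. After log2 CPM was centred on each of the 6 group means, Pearson's r was taken over the 18 mice between a member and each of 10390 genes with at least 1 CPM in both tables. It is given as a description with no p, since mice share tables and genes were ranked on it. The rank correlation (Spearman's rho) of Arntl was 0.79 with Cry1 and -0.74 with Dbp. By Pearson's r Arntl was most like Ypel2 (r = 0.91), Ccdc126 (0.86), Ahctf1 (0.83), Cry1 (0.80) and Mfsd8 (0.80). It was most opposite to Zfp324 (-0.88), Dbp (-0.79), Kctd7 (-0.78), Gfpt1 (-0.78) and Ezr (-0.76). Dbp was thus the second most opposite of all genes compared, with r = -0.96 in the 6 males (-0.71 without control male 5) and -0.64 in the 12 females. The 2 mice farthest from the median of Arntl were control male 5 and control recipient 7. With both left out, but the groups not centred again, r was -0.65 with Dbp and 0.73 with Cry1. The group means still held those 2 mice, so their weight was not fully taken out. Dbp itself was most like Ppp6r1 (r = 0.84), Fdft1 (0.84), Pex26 (0.83), Slc38a6 (0.82) and Fzd8 (0.82), and most opposite to Ensa (-0.88), Ctla2b (-0.88), Tubb2a (-0.87), St5 (-0.87) and Siah1a (-0.87).

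Several of these values rested on control male 5. Here the groups were centred again after a mouse was left out. Without that mouse, Arntl over the 17 others gave r = -0.65 with Dbp and 0.76 with Cry1, but -0.14 with Per2, against -0.53 over 18 mice. With Nr1d2 it gave 0.78 without that mouse and 0.069 without control female 29, against 0.25 over 18 mice. Within the 6 males Arntl gave r = -0.97 with Per2 and -0.85 with Nr1d2, and without control male 5 these were -0.82 and -0.18 over 5 mice. With Per3 the males gave -0.91, and -0.95 without control male 5. In the 12 females Arntl gave -0.03 with Per2, 0.88 with Nr1d2, 0.24 with Per3 and 0.78 with Cry1. With any 1 female left out the value with Nr1d2 was 0.83 to 0.95, while that with Per2 ran from -0.42 without control recipient 7 to 0.30 without LDP recipient 5. That with Per3 ran from -0.41 without control female 29 to 0.41 without control recipient 7. Differences between the count tables were not tested, and sex, count table and depth are the same split and cannot be told apart.

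**Figure D4:**
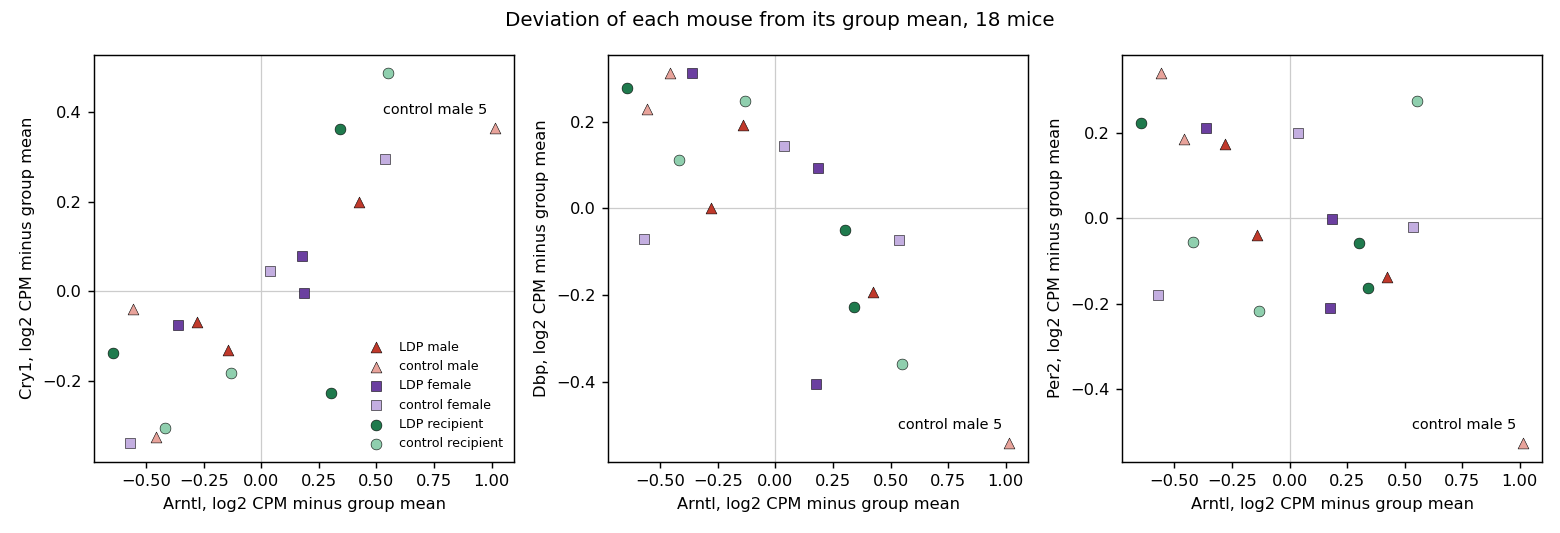
Group-centred log2 CPM of Arntl (horizontal) against Cry1, Dbp and Per2 (vertical) in 18 mice, marked by group. Cry1 runs upward with Arntl (r = 0.80) and Dbp downward (r = -0.79), while Per2 gives r = -0.53 over 18 mice and -0.14 without control male 5, which lies farthest to the lower right.

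The 6 Swiss Webster recipients were also set against the 6 C57BL6J females, a contrast in which strain, germ-free rearing, colonisation and experiment cannot be told apart. Nor can the hour of collection, which is not given, or the weeks of weaning and diet change, which are given for C57BL6J mice only. Here edgeR called 6 of the 10 members, 2 higher and 4 lower in recipients, and DESeq2 also called 6, against 26.7% of 13295 genes in edgeR (12.6% higher, 14.2% lower) and 28.4% in DESeq2. Arntl had a lowest, median and highest level of 4.49, 7.35 and 9.81 CPM in recipients, against 1.79, 3.30 and 3.98 CPM in C57BL6J females. All recipients were above all C57BL6J females, a log2 fold change of 1.18 (SE 0.239, adjusted p = 0.00334 by edgeR). Dbp was at 42.4 to 67.4 CPM in recipients, against 77.1 to 125 CPM in C57BL6J females, a log2 fold change of -0.82 (SE 0.139, adjusted p = 0.00094 by edgeR). Per2 was at 21.4 to 34.2 CPM in recipients, against 36.2 to 55.5 CPM in C57BL6J females, a log2 fold change of -0.78 (adjusted p = 0.000241 by edgeR). Arntl, Dbp and Per2 were the 3 members without overlap, beside 13.0% of genes.

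Per3 was also lower in recipients, with a log2 fold change of -0.76 (adjusted p = 0.00175 by edgeR), with overlap between mice. Clock was higher at 0.47 (adjusted p = 0.0414) and Nr1d2 lower at -0.26 (adjusted p = 0.0393 by edgeR). The call of Clock was lost without any 1 of control recipients 1 and 7, LDP recipient 2, control females 29, 30 and 32 and LDP females 39 and 52 (adjusted p = 0.0622 to 0.0873 by edgeR). That of Nr1d2 was lost without any 1 of control recipients 1 and 3, LDP recipients 5 and 8, control females 30 and 32 and LDP females 52 and 54 (adjusted p = 0.0668 to 0.101 by edgeR). Npas2, Per1, Cry1 and Nr1d1 did not pass, with log2 fold changes of 0.81, -0.35, -0.25 and 0.00. Per1 passed without control recipient 7 (adjusted p = 0.0166 by edgeR). Within each microbiota type the same direction was seen for Arntl, Dbp and Per2. Between LDP recipients and LDP females the log2 fold changes were 1.05, -0.89 and -0.79, and between control recipients and control females they were 1.30, -0.75 and -0.77, all with an adjusted p under 0.05 by edgeR. Per3 gave -0.89 and -0.63 in the same 2 contrasts, and the second did not pass (adjusted p = 0.0651 by edgeR). The index centred on control females was 0.64 to 2.13 in the 6 recipients, against -0.35 to 0.37 in the 6 C57BL6J females.

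**Figure D5:**
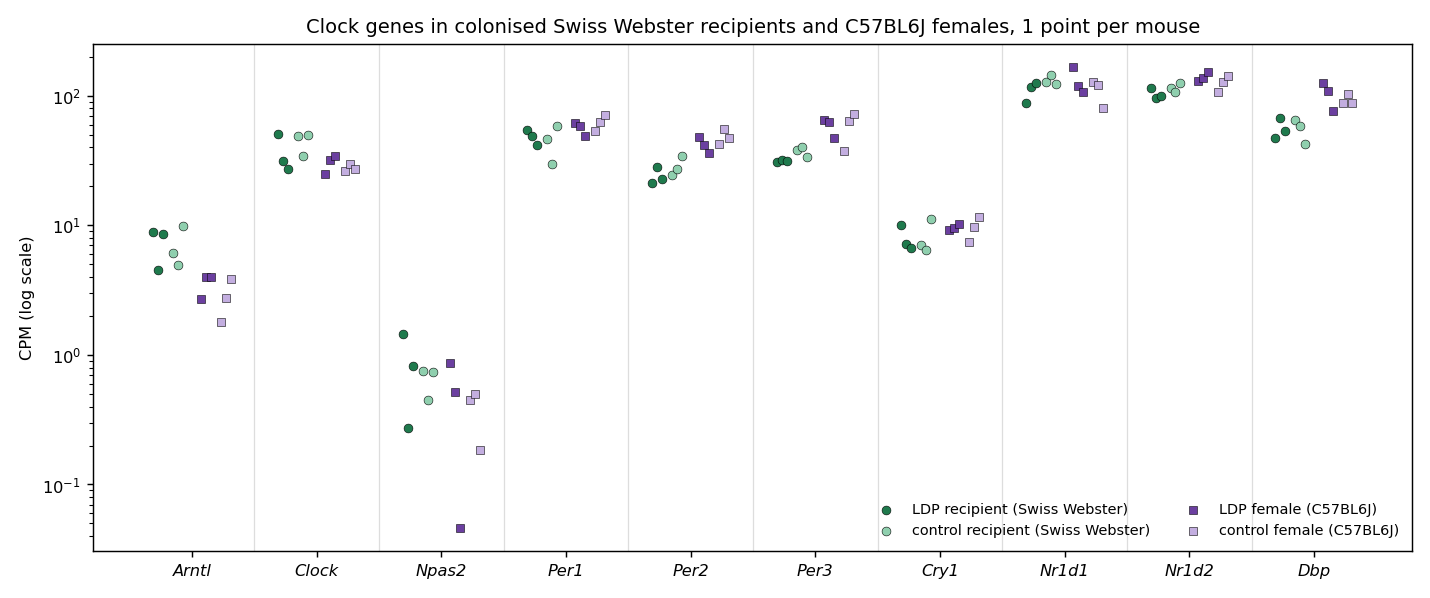
CPM (log axis) of the clock genes in the 6 recipients (circles, left) and the 6 C57BL6J females (squares, right), 1 point per mouse. Arntl is higher in every recipient than in any C57BL6J female, and Dbp and Per2 are lower.

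Of the other clock genes, edgeR called 5 of 15, beside the 26.7% of all genes (12.6% higher, 14.2% lower). It called 2 higher in recipients (Timeless, 0.43 on the log2 scale, and the D-box repressor Nfil3, 0.45). It called 3 lower (the D-box activator Tef, -0.64, Csnk1e, -0.38, and Bhlhe40, -0.46). By sign alone 6 were higher and 9 lower. DESeq2 called these 5 and also Cry2 and Ciart, 7 of 15, beside 28.4% of genes. Of the 18 clock outputs, edgeR called 2 higher (Insig2, 1.44, and Tubb2a, 0.87) and 6 lower, beside 12.6% and 14.2% of all genes. Among those called lower were Lpin1 (-2.22), Wee1 (-1.18) and the glycogen synthase gene Gys2 (-1.03). By sign alone 3 outputs were higher and 15 lower, with a median log2 fold change of -0.52. DESeq2 called 10 of the 18, beside 28.4% of genes. The cell type markers differed too. All 3 B cell markers, 2 of 4 mesothelial, 2 of 5 stellate and 2 of 6 Kupffer markers were called lower in recipients by edgeR, beside 14.2% of all genes. By sign alone all markers of these lists were lower in recipients. So were all 5 bile duct markers, of which edgeR called 0. Of 5 sinusoidal endothelial markers edgeR called 1 higher and 2 lower, while 0 of 6 hepatocyte markers passed its test. Cela1, the only exocrine pancreas marker tested, was higher, while Pnlip and Cpa1 did not pass the filter. The part of these cell types in the clock values was not tested.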

How the data were processed

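Liver RNA was prepared with the RNeasy Mini Kit and TruSeq v2 libraries, per the labels' protocols; strand handling is not given in the sources used here. Tools listed in the submitters' processing notes, with no role given, are featureCounts 1.4.3-p1, HTSeq 0.5.3p9, DESeq and STAR 2.3.0e, with mm10 as genome. Deposited were raw gene counts, 1 column per mouse, in a table of 6 males (Ensembl IDs, with a deposited gene length in bases) and a table of 12 females (symbols). Of the male IDs, 37607 (96.6%) matched a symbol in GENCODE M21 (GRCm38, the build of mm10), and 20061 names were in both tables. Ciart, Noct and Adgre1 stand in the female table under older symbols and were matched through RefSeq synonyms. No columns were left without a sample (0), and 0 pairs of libraries were identical.

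The members and lists were chosen with earlier results of these data known. The named genes were all 10 members, every gene of the other clock and clock output lists that passed the threshold or, where none did, the 2 of smallest p, and the 5 genes most like and most opposite to Arntl and Dbp. Some genes that this rule names are not reported here but remain in the list counts. Genes passed filterByExpr at a count of 10 and a total of 15. Library sizes were adjusted by TMM. edgeR 4.0.16 (R 4.3.3) gave robust quasi-likelihood F tests, and p-values were adjusted by Benjamini-Hochberg over all genes of a fit, with calls at 0.05. Each comparison of LDP with control used its own 6 libraries. Differences of effects and the comparison of recipients with C57BL6J females used 12 libraries with 1 coefficient per group. SEs were derived from the F statistic and are approximate. Log2 CPM used a prior count of 0.5. Marker sums are CPM on plain library totals. Levels were not compared between males and females, whose counts are in separate tables. RefSeq promoter sequences are those of GRCm38.p6.

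Each test of the members was recomputed with DESeq2 1.42.0 and, in edgeR, with upper quartile and with relative log expression factors. It was also run without a filter, at a mean of at least 1 CPM, without robust fitting, and with each mouse left out. The comparisons of LDP with control were refitted too with 12 libraries sharing the spread. The index was recomputed only with those other edgeR factors and with each mouse left out. Likeness and spread were not recomputed under other factors or filters. For recipients against C57BL6J females, contrasts of control groups only and of LDP groups only, within the same fit of 12 libraries, were added after seeing the data. So were the spread and the correlations with each mouse left out. The fits were tested on simulated counts with changes put into genes of at least 1 CPM. Of changes of 1.5-fold, edgeR called 64.2% in males, 32.8% in C57BL6J females and 14.9% in recipients. Of changes of 4-fold it called 97.0%, 92.4% and 97.0%. False calls were 25 of 191 calls in males, 15 of 158 in C57BL6J females and 4 of 118 in recipients. Counting depth limits the precision of low genes such as Npas2, and errors are the spread between 3 mice a group.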

Additional observations from a re-analysis of the deposited data

How the results depend on the processing

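The count of clock genes called stayed at 0 of 10 under all alternatives for LDP against control in males, C57BL6J females and recipients, and for both differences of effects. For recipients against C57BL6J females it was 6, 4 to 6 with 1 mouse left out, 5 with no filter (Clock not called, adjusted p = 0.0516 by edgeR), 5 with LDP groups only and 3 with control groups only, where Clock, Per3 and Nr1d2 were not called. These 2 last are contrasts of only the LDP groups or only the control groups within the same fit of 12 libraries, and were added after seeing the data. Arntl, Per2 and Dbp were called in each alternative run.

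Leaving out 1 mouse turned the sign of 22 of the log2 fold changes, none of them called. In males the values ran from -0.41 to 0.55 for Arntl, -0.17 to 0.17 for Per1, -0.031 to 0.14 for Nr1d2 and -0.24 to 0.13 for Dbp. In C57BL6J females they ran from -0.36 to 0.90 for Npas2, -0.22 to 0.21 for Per3, -0.13 to 0.18 for Cry1 and -0.0028 to 0.33 for Dbp. In recipients they ran from -0.13 to 0.40 for Arntl, -0.19 to 0.79 for Npas2, -0.11 to 0.35 for Per1, -0.25 to 0.26 for Cry1 and -0.15 to 0.12 for Dbp. For the effect in females minus that in males they ran from -0.23 to 0.80 for Arntl, -0.91 to 0.35 for Npas2 and -0.33 to 0.014 for Per1. For the effect in recipients minus that in females they ran from -0.57 to 0.077 for Arntl, -0.56 to 0.77 for Npas2, -0.16 to 0.12 for Per2, -0.26 to 0.24 for Cry1 and -0.31 to 0.016 for Dbp. Nr1d1 in recipients against C57BL6J females had a log2 fold change of 0.00, ran from -0.091 to 0.10 with 1 mouse left out, and its sign turned to -0.00096 with DESeq2, -0.00092 with relative log expression factors, -0.017 with upper quartile factors, -0.00039 with no filter, -0.0064 at 1 CPM and -0.25 with LDP groups only. The cause was not tested.

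Npas2 was below a mean of 1 CPM and gave no value under that filter. The index difference of LDP minus control was 0.12 in males (-0.19 to 0.66 with 1 mouse left out), 0.06 in C57BL6J females (-0.09 to 0.27) and 0.08 in recipients (-0.27 to 0.47). No paired analysis was possible because the groups compared share fewer than 2 replicate numbers. Depth limits Npas2, with 1 count in a female library.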
